A study of Mus musculus with 6 samples.

Results

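The genes described here are the enzymes with which cells dispose of superoxide, hydrogen peroxide and reactive electrophiles, together with the thiol systems that keep those enzymes reduced. Members were taken by name from the rows of the count table: the superoxide dismutases (Sod1 to Sod3), glutathione peroxidases, peroxiredoxins, glutathione transferases, thioredoxins, thioredoxin reductases and glutaredoxins, and 11 named genes (Cat, Gsr, Gss, Gclc, Gclm, Nqo1, Hmox1, Nfe2l2, Keap1, Nnt and Srxn1). The rule used no measured value, and it gave 52 of the 14495 genes in the table. Of these 52 genes, 51 had enough counts to be tested. Mgst2, a microsomal glutathione transferase, was not tested: it had 35, 26 and 5 reads at postnatal day 1 (P1) and 0, 0 and 4 at postnatal day 14 (P14).

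Poly(A) RNA was sequenced from ventricles of male C57BL/6 mice (written C57BL6/J in the protocol) aged 1 day (P1) or 14 days (P14), for which the labels give no treatment or altered gene. There were 3 libraries per age, and every library pooled 3 hearts, so 9 hearts contributed to an age and no value belongs to a single animal. The protocol describes ventricles with septum and without atria, whereas the tissue field names the left ventricle. In pooled bulk tissue a lower transcript level can come from fewer cells of a type or from less RNA per cell, and these cannot be told apart.

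Superoxide dismutases turn superoxide into hydrogen peroxide: SOD1 in the cytosol, SOD2 in the mitochondrial matrix and SOD3 outside the cell. Peroxide is then removed by catalase, by glutathione peroxidases that consume reduced glutathione, and by peroxiredoxins that are recharged by thioredoxin. Glutathione reductase and the thioredoxin reductases restore both carriers at the expense of NADPH, and the transcription factor NRF2 (Nfe2l2), held back by KEAP1, drives many of these genes. The heart depends on these systems because its mitochondria are a steady source of superoxide, and the days after birth are a period in which cardiomyocytes move from glycolysis towards oxidative metabolism.

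Library totals ran from 5916557 counts (P1 replicate 3) to 17353933 (P1 replicate 1). Levels are given as CPM (reads scaled to a common library size) after trimmed mean of M-values (TMM) scaling, in the order of replicates 1 to 3. Rose and fell are used only for genes with a Benjamini-Hochberg adjusted p under 0.05 over all 14301 tested genes in edgeR's quasi-likelihood test, and log2 fold changes (P14 minus P1) carry their standard error. P1 replicate 2 stood apart in its treatment of GC-rich transcripts: the median deviation of GC-rich genes from the mean of its age, less that of GC-poor genes (top and bottom quartile), was −0.70 on the log2 scale, against 0.41 and 0.29 in the other P1 libraries and −0.09 to 0.13 at P14. Cardiomyocyte markers, 12 genes such as the cardiac troponins and myosins, summed to between 67582 and 76847 CPM at P1 and between 104650 and 123281 CPM at P14. Of the 12, 7 rose and 2 fell; 3 rose without P1 replicate 3 or without P14 replicate 2, and 4 with library totals alone.

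Among the 51 tested defence genes, 18 rose (35.3%; 21.8% of all tested genes rose), 8 fell (15.7%; 22.0% of all tested genes fell) and 25 did not pass. The median log2 fold change of the 51 genes was 0.20, beside −0.01 for all tested genes. The P1 and P14 values did not overlap in 31 of the 52 genes (59.6%), beside 54.8% of all tested genes, with 19 genes higher and 12 lower in all P14 libraries. The share that rose was above and the share that fell below that of all genes, while the share without overlap lay close to it. Whether rises outnumber falls rests on the scaling: with library totals alone 10 defence genes rose and 15 fell, beside 1620 and 5592 of all genes. With that scaling the median of all genes moved from −0.01 to −0.47 and that of the defence genes from 0.20 to −0.25. The defence median thus stayed above that of all genes under both scalings. Of the 26 called genes, 16 kept their call and direction under every alternative setting in which they were tested (14 settings for Gstt3, Gsta3 and Gstm6, which the filter of over 5 CPM removed, and 15 for the others), namely the rises of Gstt1, Gstt2, Gstt3, Glrx5, Prdx5, Gsta3, Cat, Gstk1, Gstm1 and Sod3 and the falls of Mgst1, Txnrd1, Glrx, Prdx4, Gsr and Gstm6.

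**Figure D1:**
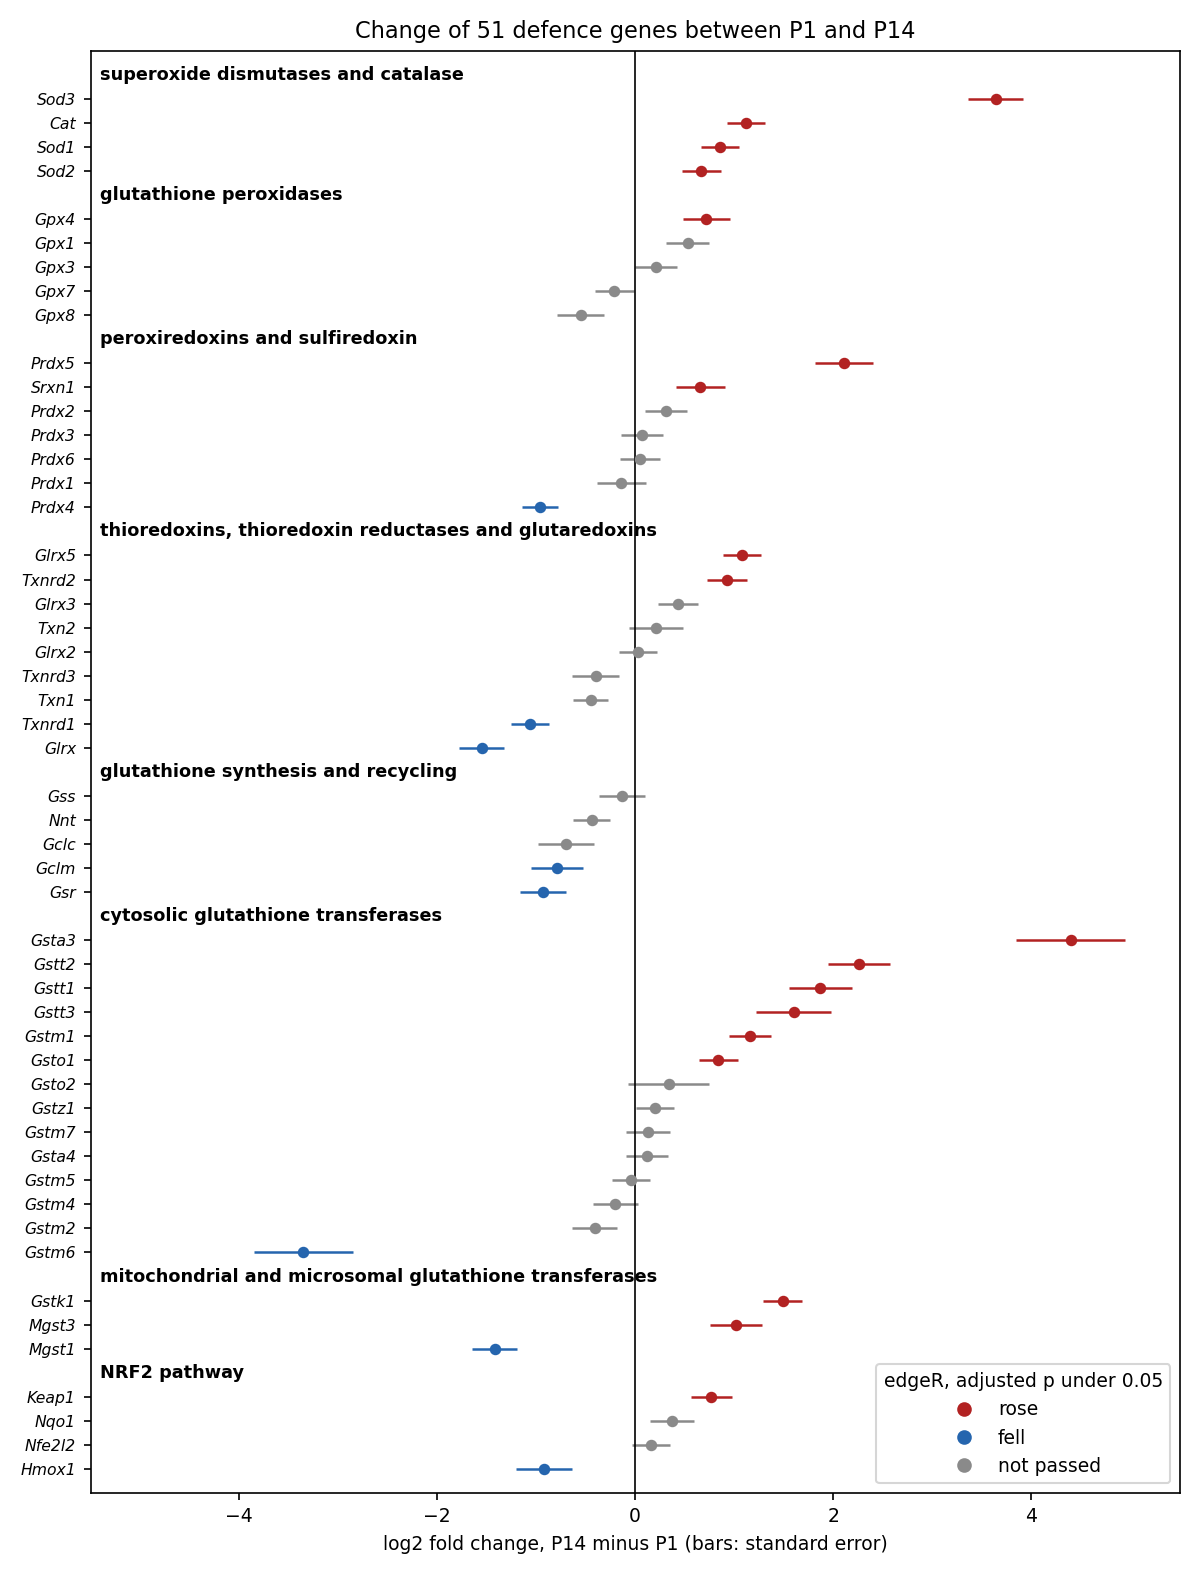
Log2 fold change (P14 minus P1, horizontal axis) of the 51 tested defence genes, grouped by role, with bars for the standard error; red points rose, blue points fell and grey points did not pass in edgeR at an adjusted p under 0.05. The 3 superoxide dismutases and catalase lie to the right of 0, all 5 genes of glutathione synthesis and recycling lie to the left, and the transferases spread from −3.35 (Gstm6) to 4.40 (Gsta3).

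In the main fit all 4 genes for enzymes that dismutate superoxide or break down peroxide without a thiol rose, beside 21.8% of all tested genes. With so few genes this share is coarse, and it depends on the setting. With library totals alone 2 of the 4 genes rose, and without P1 replicate 1 it was 3. Sod3, the secreted copper-zinc dismutase (chromosome 5, 52363791 to 52371418, GRCm38), was at 2.78, 1.87 and 2.69 CPM at P1 and at 37.7, 27.0 and 26.1 CPM at P14. Every P14 library was far above every P1 library, and the 12.5-fold rise (log2 fold change 3.64 ± 0.28, adjusted p = 3.20e-07) was the largest in the defence set after that of Gsta3. Catalase, the peroxisomal enzyme encoded by Cat (chromosome 2, 103453849 to 103485160), was at 63.6, 70.4 and 54.4 CPM at P1 and at 126, 142 and 142 CPM at P14. The groups did not overlap and the level rose 2.17-fold (1.12 ± 0.19, adjusted p = 3.22e-04).

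The intracellular dismutases rose by less. Sod1 was at 212, 218 and 247 CPM at P1 and at 411, 441 and 373 CPM at P14, a rise of 0.86 ± 0.19 (adjusted p = 0.00238). Sod2 was at 337, 392 and 337 CPM at P1 and at 655, 549 and 493 CPM at P14, a rise of 0.67 ± 0.20 (adjusted p = 0.0139) whose call ended without P1 replicate 1 (0.63, adjusted p = 0.0556). Neither gene's groups overlapped. With library totals alone the calls of Sod1 and Sod2 ended, and those of Sod3 and Cat did not. The number of Sod2 reads per Sod1 read within a library was 1.59, 1.80 and 1.36 at P1 and 1.59, 1.24 and 1.32 at P14, so the mitochondrial and cytosolic forms kept overlapping ratios (difference −0.19 on the log2 scale, exact permutation p = 0.3). Only 75.1% of the 36-base windows in Sod2 exons were unique, so its counts and this ratio are uncertain.

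**Figure D2:**
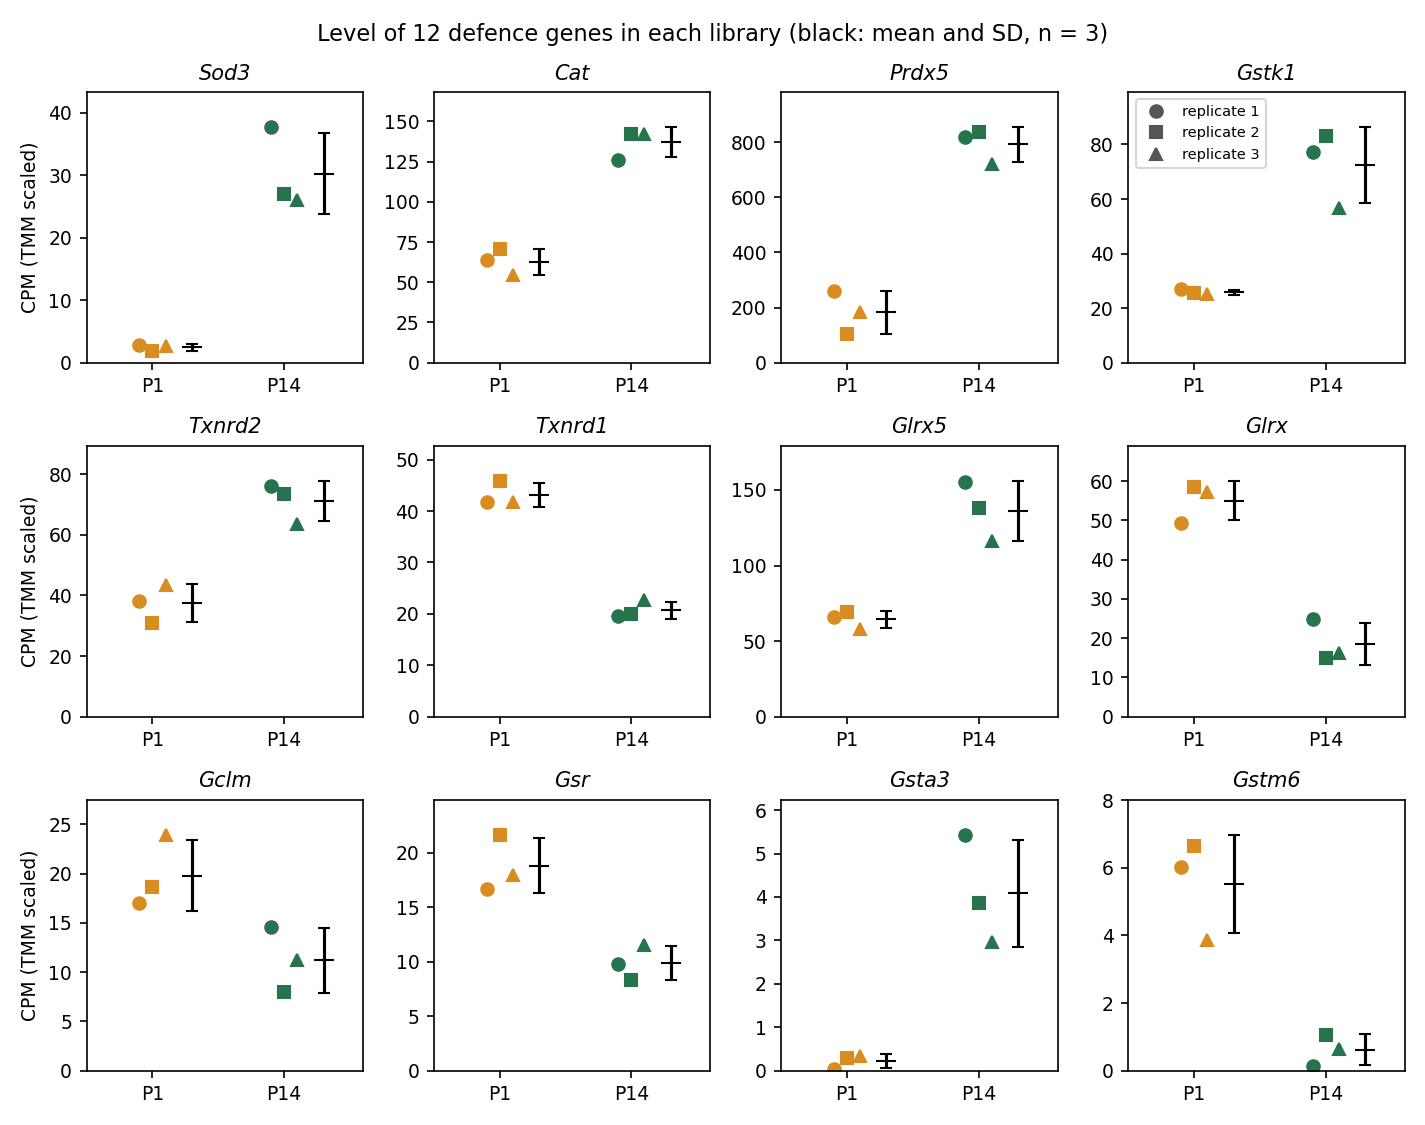
TMM-scaled CPM of 12 defence genes in each library (vertical axes start at 0; circles, squares and triangles are replicates 1, 2 and 3), with the mean and SD of the 3 libraries of an age in black. In all 12 genes the P1 and P14 libraries form separate groups, with Sod3, Cat, Prdx5, Gstk1, Txnrd2, Glrx5 and Gsta3 higher at P14 and Txnrd1, Glrx, Gclm, Gsr and Gstm6 lower.

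Of 5 glutathione peroxidases, 1 rose (20.0%, beside 21.8% of all tested genes), 0 fell (beside 22.0%) and 4 did not pass. Their median was 0.21. Gpx4, which reduces lipid peroxides within membranes, was at 44.6, 30.4 and 59.4 CPM at P1 and at 87.4, 72.6 and 59.2 CPM at P14. The highest P1 library lay above the lowest P14 library, and Gpx4 was the only called defence gene whose groups overlapped (0.72 ± 0.24, adjusted p = 0.0286). After a correction for GC content and transcript length its change was 0.06 (adjusted p = 0.781). Without P14 replicate 1 it was 0.57 (adjusted p = 0.116), without P14 replicate 2 it was 0.72 (adjusted p = 0.0767), and with library totals alone it was 0.29 (adjusted p = 0.345). Only 62.4% of the 36-base windows in its exons were unique, most of the others being shared with the pseudogene Gpx4-ps2, so its counts are uncertain.

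Gpx1, the abundant cytosolic and mitochondrial peroxidase, was at 178, 106 and 158 CPM at P1 and at 205, 226 and 210 CPM at P14. Every P14 library was above every P1 library, yet the difference did not pass (0.53 ± 0.22, adjusted p = 0.0569). It passed with the replicate number as a block (0.57, adjusted p = 0.0304) and without P1 replicate 1 (0.69, adjusted p = 0.032). The change of Gpx1 shrank to 0.08 after the GC and length correction (adjusted p = 0.697) and with library totals alone (adjusted p = 0.806), and to 0.34 without P1 replicate 2 (adjusted p = 0.0984). Gpx3, the secreted plasma form, was at 146, 110 and 149 CPM and then at 186, 143 and 137 CPM, with overlapping groups (0.21 ± 0.21, adjusted p = 0.444). The peroxidases of the endoplasmic reticulum, Gpx7 and Gpx8, had negative changes that did not pass (−0.21 ± 0.20 and −0.55 ± 0.24, adjusted p = 0.436 and 0.082). Gpx7 passed after the GC and length correction (−0.59, adjusted p = 0.00445) and Gpx8 without P1 replicate 3 (−0.72, adjusted p = 0.0366).

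Among 6 peroxiredoxins and sulfiredoxin, 2 genes rose (28.6%, beside 21.8% of all tested genes) and 1 fell (14.3%, beside 22.0%). The other 4 did not pass, and the median was 0.07. Prdx5, a peroxiredoxin found in mitochondria, peroxisomes and cytosol (chromosome 19, 6906697 to 6910106), was at 261, 104 and 184 CPM at P1 and at 819, 836 and 721 CPM at P14. The lowest P14 library was well above the highest P1 library, and the rise was 4.33-fold (2.11 ± 0.29, adjusted p = 6.30e-05). P1 replicate 2, the library low in GC-rich transcripts, was the lowest; without it the change was 1.83. Exons of Prdx5 overlap those of Trmt112 on the opposite strand, and the sources used here do not say whether reads were assigned by strand.

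Prdx4, the peroxiredoxin of the endoplasmic reticulum, went the other way: it was at 64.3, 65.2 and 60.1 CPM at P1 and at 34.3, 30.8 and 32.3 CPM at P14. The libraries of an age lay close together and far from the other age, and the level fell 1.95-fold (−0.96 ± 0.18, adjusted p = 7.76e-04). Sulfiredoxin (Srxn1), which repairs overoxidised peroxiredoxins, was at 7.77, 11.4 and 10.6 CPM at P1 and at 19.5, 13.5 and 13.4 CPM at P14. It rose by the narrowest margin of all called defence genes (0.66 ± 0.25, adjusted p = 0.0476), and the call ended in 10 of 15 alternative settings, among them leaving out any of 5 of the 6 libraries (adjusted p = 0.0648 to 0.194).

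The remaining peroxiredoxins were abundant and did not pass. Prdx3, the mitochondrial matrix form, was at 165, 190 and 192 CPM at P1 and at 245, 161 and 167 CPM at P14, with P14 replicate 1 alone above the P1 range (0.07 ± 0.21, adjusted p = 0.816). Its cytosolic counterpart Prdx1 was at 129, 141 and 93.5 CPM and then at 154, 91.9 and 84.2 CPM, again overlapping. Prdx2, the peroxiredoxin of red cells and other cytosols, was at 449, 356 and 406 CPM and then at 593, 509 and 403 CPM (0.31, adjusted p = 0.24). Within the family, therefore, Prdx5 and Prdx4 moved in opposite directions while Prdx1, Prdx2, Prdx3 and Prdx6 did not pass.

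Of 9 thioredoxins, thioredoxin reductases and glutaredoxins, 2 rose, 2 fell and 5 did not pass, with a median of 0.03. The shares that rose and fell (22.2% each) lay close to the 21.8% and 22.0% of all tested genes. Txnrd1, the cytosolic thioredoxin reductase (chromosome 10, 82833951 to 82897712), was at 41.7, 45.8 and 41.8 CPM at P1 and at 19.6, 19.9 and 22.7 CPM at P14. All P14 libraries were below all P1 libraries, a 2.08-fold fall (−1.06 ± 0.19, adjusted p = 5.70e-04). Txnrd2, the mitochondrial reductase (chromosome 16, 18426384 to 18479073), was at 38.1, 31.0 and 43.4 CPM at P1 and at 76.0, 73.4 and 63.5 CPM at P14. Here all P14 libraries were above, a 1.90-fold rise (0.93 ± 0.20, adjusted p = 0.00181) whose call ended with library totals alone.

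Because both reductases are read in the same library, their ratio does not depend on scaling. There were 0.912, 0.676 and 1.04 Txnrd2 reads per Txnrd1 read at P1 and 3.88, 3.68 and 2.80 at P14. The lowest P14 ratio was above the highest P1 ratio, and the mean difference of 1.99 on the log2 scale is a 3.96-fold shift (exact permutation p = 0.1, the smallest that 3 libraries against 3 can give; Benjamini-Hochberg adjusted p = 0.3 over 6 ratios). The substrates did not show so clear a shift: P1 libraries had 2.86, 1.91 and 4.62 Txn2 reads per Txn1 read and P14 libraries 5.42, 4.44 and 4.86, which overlap (0.74, exact permutation p = 0.2, adjusted p = 0.3). Txn1, the cytosolic thioredoxin, was at 112, 93.9 and 90.8 CPM and then at 72.6, 70.8 and 73.1 CPM, without overlap but not past the threshold (−0.45 ± 0.18, adjusted p = 0.0583; −0.49 and 0.0209 without P1 replicate 2). Txn2, the mitochondrial thioredoxin, ran from 179 to 419 CPM at P1 and from 315 to 393 CPM at P14, the lowest value being that of P1 replicate 2. Txnrd3, the reductase best known from testis, had a change of −0.40 ± 0.24 (adjusted p = 0.187) and passed without P14 replicate 1 (−0.65, adjusted p = 0.0457).

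**Figure D3:**
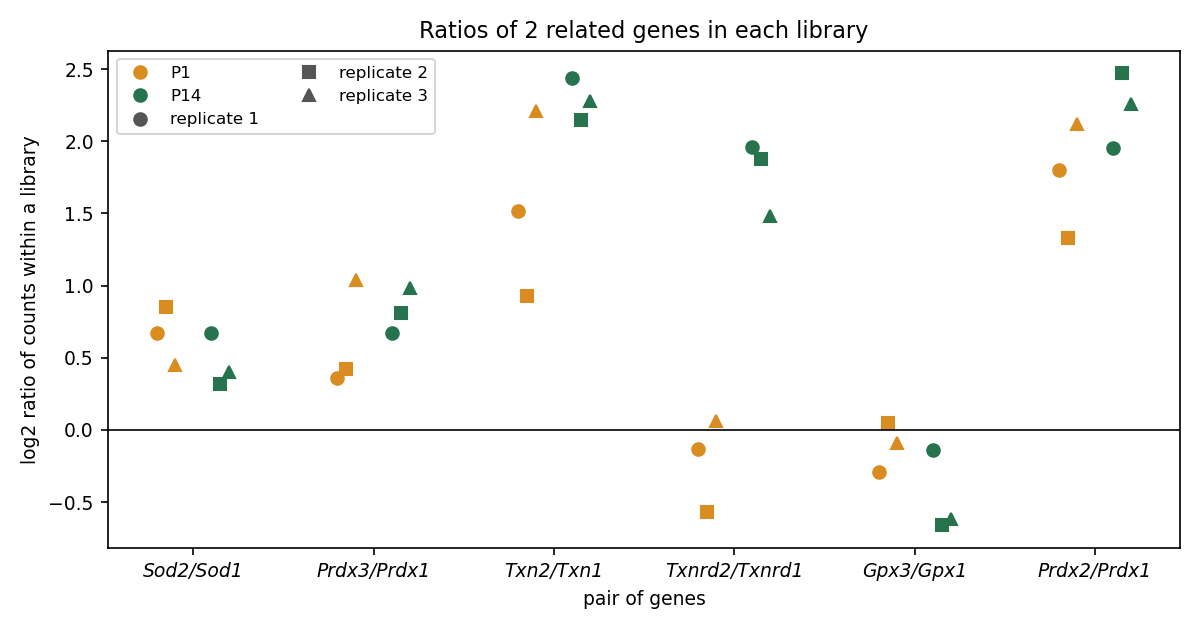
Log2 ratio of the counts of 2 related genes within each library (vertical axis) for 6 pairs, with P1 in orange and P14 in green and the replicate number shown by shape. The Txnrd2/Txnrd1 ratios run from −0.57 to 0.06 at P1 and from 1.48 to 1.96 at P14 and are the only ratios of the 6 without overlap; each symbol is a library.

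Glutaredoxins, which reduce mixed disulfides with glutathione, split in a similar way. Glrx, the main cytosolic glutaredoxin, was at 49.4, 58.5 and 57.1 CPM at P1 and at 24.8, 14.9 and 16.2 CPM at P14, a 2.93-fold fall without overlap (−1.55 ± 0.23, adjusted p = 9.71e-05). Glrx5, a mitochondrial glutaredoxin that serves iron-sulfur cluster assembly, was at 65.9, 69.3 and 58.3 CPM at P1 and at 155, 138 and 116 CPM at P14, a 2.11-fold rise without overlap (1.08 ± 0.19, adjusted p = 5.13e-04). Glrx2, with mitochondrial and nuclear forms, had a change of 0.03 (adjusted p = 0.91). The cytosolic monothiol Glrx3 was higher in all P14 libraries (32.9, 44.4 and 38.1 CPM at P1, 46.1, 61.9 and 47.3 CPM at P14) without passing (0.43 ± 0.20, adjusted p = 0.105); it passed without P1 replicate 2 (0.55, adjusted p = 0.0234).

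No gene that makes or recycles glutathione rose. All 5 had negative log2 fold changes (median −0.70), 2 fell (40.0%, beside 22.0% of all tested genes) and 3 did not pass. Gsr, glutathione reductase, was at 16.7, 21.6 and 18.0 CPM at P1 and at 9.78, 8.36 and 11.5 CPM at P14, a 1.91-fold fall without overlap (−0.93 ± 0.23, adjusted p = 0.00481). Glutamate-cysteine ligase sets the rate of glutathione synthesis, and its modifier subunit gene Gclm was at 17.0, 18.6 and 23.9 CPM at P1 and at 14.6, 7.97 and 11.2 CPM at P14 (−0.79 ± 0.26, adjusted p = 0.0222). The call of Gclm ended without P1 replicate 3 (−0.64, adjusted p = 0.0981), without P14 replicate 2 (−0.60, adjusted p = 0.12), without P14 replicate 3 (−0.79, adjusted p = 0.07) and after the GC and length correction (−0.55, adjusted p = 0.0837).

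The catalytic subunit gene Gclc was lower in all P14 libraries (7.59, 10.3 and 9.09 CPM at P1, 4.08, 6.11 and 6.57 CPM at P14) and stayed just outside the threshold (−0.70 ± 0.28, adjusted p = 0.0519). It passed with the replicate number as a block (−0.71, adjusted p = 0.0274) and without P1 replicate 1 (−0.83, adjusted p = 0.0408). Gss, which completes the tripeptide, had a change of −0.13 (adjusted p = 0.666), and 0.01 after the GC and length correction. Nnt, the transhydrogenase that makes NADPH inside mitochondria, was at 209, 231 and 215 CPM at P1 and at 170, 141 and 172 CPM at P14, lower in all P14 libraries but not past the threshold (−0.44 ± 0.19, adjusted p = 0.0718). C57BL/6J mice are known to carry a deletion within Nnt, and 52.4% of its windows were unique because GENCODE holds a second Nnt model over the locus, so this row describes transcript reads and not the enzyme.

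Glutathione transferases, which conjugate glutathione to electrophiles, held both the largest rise and the largest fall among the defence genes. Of 14 cytosolic transferases 6 rose (42.9%, beside 21.8% of all tested genes), 1 fell (7.1%, beside 22.0%) and 7 did not pass (median 0.27). The theta class genes lie together on chromosome 10 (75774115 to 75837424), and all 3 measured ones rose. Gstt1 was at 6.34, 2.33 and 4.21 CPM at P1 and at 16.6, 17.4 and 13.5 CPM at P14 (3.65-fold, 1.87 ± 0.32, adjusted p = 3.94e-04). Gstt2 was at 4.30, 2.04 and 3.87 CPM and then at 14.2, 20.2 and 14.4 CPM (4.81-fold, 2.26 ± 0.31, adjusted p = 5.18e-05). Gstt3 was at 1.43, 0.816 and 0.674 CPM and then at 3.03, 3.32 and 3.22 CPM (3.04-fold, 1.60 ± 0.38, adjusted p = 0.00367). In all 3 genes every P14 library exceeded every P1 library; Gstt3 shares exons with the model Gm20441 on its own strand.

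The mu class genes on chromosome 3 did not move together. Gstm1 (108012255 to 108017973) was at 51.8, 42.8 and 63.3 CPM at P1 and at 121, 132 and 99.4 CPM at P14, a 2.24-fold rise (1.16 ± 0.21, adjusted p = 4.89e-04). Gstm6 (107938847 to 107943749), in the same cluster, was at 6.01, 6.65 and 3.87 CPM at P1 and at 0.141, 1.06 and 0.644 CPM at P14, a 10.2-fold fall (−3.35 ± 0.50, adjusted p = 1.16e-04) that rests on 2, 8 and 5 reads at P14. Gstm1 and Gstm6 moved in opposite directions, neither with overlapping groups, and Gstm2 lies between them. Gstm2, Gstm4, Gstm5 and Gstm7 did not pass, with changes from −0.41 to 0.13; Gstm2 passed without P1 replicate 2 (−0.55, adjusted p = 0.0335). Mu class genes are similar in sequence, and 74.3% of Gstm1 and 91.6% of Gstm6 windows were unique, so part of their reads could have been assigned to a relative.

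Gsta3, of the alpha class (chromosome 1, 21240589 to 21265661), was nearly undetected at P1, with 1, 5 and 2 reads, and had 77, 29 and 23 reads at P14. In CPM these were 0.0463, 0.291 and 0.337 against 5.42, 3.85 and 2.96, a fitted 21.2-fold rise (4.40 ± 0.55, adjusted p = 2.37e-05) whose size is poorly fixed because the P1 counts are so few. Its relative Gsta4, which conjugates lipid peroxidation products, had a change of 0.12 (adjusted p = 0.675). Gsto1, an omega class transferase, was at 78.2, 78.6 and 67.9 CPM and then at 164, 121 and 118 CPM (1.79-fold, 0.84 ± 0.20, adjusted p = 0.00359), while the neighbouring Gsto2, at under 3 CPM, did not pass. The call of Gsto1 ended with library totals alone.

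Of 3 tested transferases of mitochondria and membranes 2 rose (66.7%, beside 21.8% of all tested genes) and 1 fell (33.3%, beside 22.0%). With so few genes these shares are coarse. Gstk1, the kappa class enzyme of mitochondria and peroxisomes (chromosome 6, 42245935 to 42250447), was at 26.9, 25.5 and 25.1 CPM at P1 and at 77.3, 83.1 and 56.7 CPM at P14, a 2.80-fold rise (1.49 ± 0.20, adjusted p = 5.40e-05). Mgst3, the microsomal form, was at 231, 112 and 234 CPM and then at 444, 394 and 328 CPM (2.02-fold, 1.02 ± 0.26, adjusted p = 0.00684; the call ended with library totals alone). Mgst1 was at 21.1, 17.9 and 26.4 CPM and then at 8.73, 7.57 and 7.98 CPM, a 2.67-fold fall (−1.42 ± 0.23, adjusted p = 2.60e-04). None of these 3 genes had overlapping groups. Of all transferase reads in a library, Mgst3 took 19.3% to 30.2% at P1 and 35.3% to 35.7% at P14, while Gstm5 took 15.8% to 17.1% and then 9.97% to 10.6%.

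**Figure D4:**
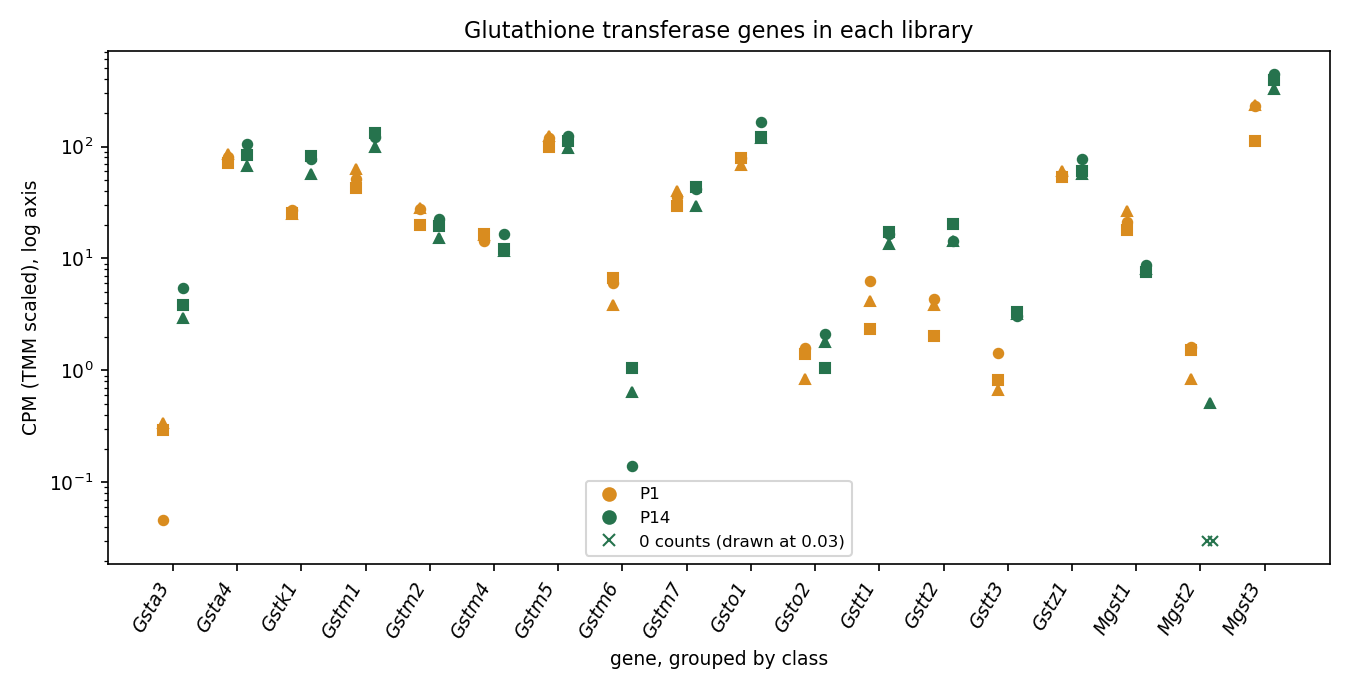
TMM-scaled CPM (log axis) of the 18 glutathione transferase genes in each library, ordered by class, with P1 in orange and P14 in green, and circles, squares and triangles for replicates 1, 2 and 3; crosses mark libraries with 0 reads, drawn at 0.03. The theta class genes Gstt1, Gstt2 and Gstt3 sit higher at P14 in every library, Gstm6 and Mgst1 sit lower, and levels span from 0.0463 CPM (Gsta3, P1 replicate 1) to 444 CPM (Mgst3, P14 replicate 1).

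The NRF2 regulators and classical targets did not change as a block, with 1 of 4 genes up, 1 down and 2 not passed. The shares up and down (25.0% each) lay close to the 21.8% and 22.0% of all tested genes. Nfe2l2, which encodes NRF2, was at 40.1, 37.9 and 39.7 CPM at P1 and at 51.7, 39.3 and 40.3 CPM at P14, with overlapping groups (0.16 ± 0.19, adjusted p = 0.53). Keap1, the adaptor that marks NRF2 for degradation, was at 36.0, 24.5 and 36.4 CPM and then at 58.8, 50.1 and 55.5 CPM, a 1.70-fold rise without overlap (0.77 ± 0.21, adjusted p = 0.00841). That call ended after the GC and length correction (0.27, adjusted p = 0.14) and with library totals alone (0.32, adjusted p = 0.302).

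Hmox1, the heme oxygenase that NRF2 induces and BACH1 represses, was at 14.8, 13.2 and 20.5 CPM at P1 and at 11.0, 5.84 and 8.24 CPM at P14, a 1.89-fold fall without overlap (−0.92 ± 0.28, adjusted p = 0.0153). It did not pass without P1 replicate 3 (adjusted p = 0.079), without P14 replicate 2 (adjusted p = 0.0857) or without P14 replicate 3 (adjusted p = 0.0532). Nqo1, the quinone reductase often read as an NRF2 target, was at 14.9, 16.2 and 16.7 CPM and then at 23.4, 22.2 and 16.1 CPM, with P14 replicate 3 inside the P1 range (0.37 ± 0.22, adjusted p = 0.188). Nqo1 passed after the GC and length correction (0.53, adjusted p = 0.0174). Other defence genes known as NRF2 targets went both ways, with Txnrd1, Gclm, Gsr and Mgst1 lower and Srxn1, Gsta3 and Gstm1 higher.

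NRF2 binds the antioxidant response element, so the promoters were searched for its core, TGACNNNGC, on both strands of RefSeq windows running from 250 bases before to 50 after a transcription start (GRCm38.p6). Of the 52 genes 44 had a window, and 10 of the 44 (22.7%) held the core, beside 17.3% of 9448 genes in the count table with a window. Of the 10 genes with the core 3 rose (Gsta3, Sod1 and Srxn1), 3 fell (Gclm, Mgst1 and Txnrd1) and 4 did not pass (Gstm5, Gstm7, Nfe2l2 and Prdx1). Of the 34 genes without it in their windows 13 rose, 3 fell, 17 did not pass and 1 was not tested. Among all tested defence genes 35.3% rose and 15.7% fell, and among all tested genes 21.8% and 22.0%. Whether calls differ between genes with and without the core was not tested, and 10 genes are too few to tell. Elements farther from the start and variants of the core were not searched, so these 34 genes may still hold an element. Stretches around the core are printed for 2 genes that fell and 2 that rose, 5′ to 3′ on the plus strand, which is the gene's own strand for all 4, with the core in capitals; it reads forward in Gsta3 and on the opposite strand in the others.
Txnrd1: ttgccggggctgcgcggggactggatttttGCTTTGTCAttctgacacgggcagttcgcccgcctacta
Gclm: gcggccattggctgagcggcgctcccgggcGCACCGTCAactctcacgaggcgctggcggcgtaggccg
Sod1: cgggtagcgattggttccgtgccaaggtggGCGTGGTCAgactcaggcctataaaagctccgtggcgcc
Gsta3: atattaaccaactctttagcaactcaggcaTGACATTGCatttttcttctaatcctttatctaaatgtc
They lie at chr10:82859084-82859152 (Txnrd1, 1 of its 3 start windows), chr3:122245393-122245461 (Gclm), chr16:90220676-90220744 (Sod1) and chr1:21240434-21240502 (Gsta3). A match is a string of letters and not a bound site, and the core stood upstream of genes that fell as well as of genes that rose.

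Grouped by compartment, the genes whose products work in mitochondria (Sod2, Prdx3, Prdx5, Txn2, Txnrd2, Glrx2, Glrx5, Gstk1 and Nnt) had 5 rises, 0 falls and 4 that did not pass, with a median of 0.67 (55.6% rose and 0.0% fell, beside 21.8% and 22.0% of all tested genes). Their 9 cytosolic partners (Sod1, Prdx1, Prdx2, Prdx6, Txn1, Txnrd1, Glrx, Glrx3 and Gsr) had 1 rise (Sod1), 3 falls (Txnrd1, Glrx and Gsr) and 5 that did not pass, with a median of −0.14 (11.1% rose and 33.3% fell, beside 21.8% and 22.0% of all tested genes). With 9 genes a list, a single call moves a share by 11.1 percentage points. With library totals alone the mitochondrial genes had 3 rises and 1 fall and the cytosolic ones 0 rises and 4 falls. The counts also depend on which genes were listed. The transferase Gstk1 is on the mitochondrial list, but the cytosolic transferases (6 of 14 rose and 1 fell) are on neither list. Prdx5, also found in peroxisomes and cytosol, is counted as mitochondrial, and Gpx1 and Gpx4 are on neither list. Mgst1, which fell, and Mgst3, which rose, were grouped above with Gstk1 but are on neither list. The difference between the compartments was not tested as such. Of the 4 mitochondrial to cytosolic ratios computed, Txnrd2/Txnrd1 did not overlap between ages and Sod2/Sod1, Prdx3/Prdx1 and Txn2/Txn1 did; no ratio was computed for Glrx5, which rose, and Glrx, which fell.

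Levels can be compared between genes only per length of transcript. Merged exons hold every annotated exon of a gene (1097 bases for Mgst3, 3970 for Sod1 and 10008 for Sod2). They can be longer than the transcript that is made, so the order of genes given here is approximate and depends on the annotation. Per kilobase of merged exons, Mgst3 was the highest at P1 (175 ± 63.3 CPM per kb, SD, n = 3), followed by Prdx2 (132 ± 15.3), Prdx3 (123 ± 10.0) and Gpx1 (102 ± 25.9), neighbours whose SDs overlap. At P14 Prdx5 (370 ± 29.0 CPM per kb) and Mgst3 (354 ± 52.8) led with overlapping SDs and were separated by more than their SDs from Prdx2 (165 ± 31.3), Gpx1 (148 ± 7.69), Prdx3 (129 ± 31.9) and Sod1 (103 ± 8.67). Prdx5 had been seventh at P1, at 85.5 ± 36.7 CPM per kb. Summed over all 52 genes, defence transcripts came to between 3613 and 4212 CPM at P1 and between 5108 and 6353 CPM at P14, in CPM without length. The gap between these sums depends on the TMM factors, and sums with library totals alone were not computed.

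Genes next to these pathways were read from lists of non-members, to be set beside the 21.8% of all tested genes that rose and the 22.0% that fell. Among 16 rows of NRF2 partners and negative regulators 4 rose (25.0%) and 3 fell (18.8%), shares close to those of all genes (median −0.12; 2 rose and 7 fell with library totals alone). In this list the small Maf partner gene Mafg rose from a mean of 14.6 to 44.8 CPM (the larger of 2 rows with that symbol, both of which rose) and Nfe2l1, a relative of NRF2, from 119 to 203 CPM (not past the threshold with library totals alone), while Bach2 fell from 8.27 to 3.71 CPM and the ubiquitin ligase subunit gene Fbxw11 from 62.7 to 25.0 CPM. Bach1 was at 12.0 and 9.35 CPM and did not pass (−0.38, adjusted p = 0.303), but fell with library totals alone (−0.86, adjusted p = 0.0151). Among 23 further NRF2 targets 9 rose (39.1%) and 5 fell (21.7%), with a median of 0.20. The metallothionein gene Mt1 rose from 124 to 427 CPM and the exporter gene Abcc1 from 8.76 to 32.8 CPM, and Ptgr1 fell from 19.4 to 6.6 CPM. The count of falls in this list rests on single libraries: it was 1 without P14 replicate 2, 3 without P1 replicate 1, P1 replicate 3 or P14 replicate 3, and 7 without P1 replicate 2.

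NADPH powers both reductases, and of 17 genes for its supply 2 rose (11.8%), 7 fell (41.2%) and 8 did not pass (median −0.41; 2 rose and 11 fell with library totals alone). The malic enzyme genes differed: Me3, mitochondrial, rose from 19.7 to 150 CPM and Me1, cytosolic, from 19.1 to 53.1 CPM, whereas Me2, also mitochondrial, fell from 15.9 to 6.65 CPM. Mthfd2, of mitochondrial folate metabolism, fell from 12.9 to 2.69 CPM. Of 16 genes of glutathione turnover and transport 6 rose (37.5%) and 1 fell (median 0.60; 4 rose and 2 fell with library totals alone), and the largest named rise was that of Ggct, from 1.87 to 10.9 CPM. Synthesis genes among the members and turnover genes in this list thus had medians of opposite sign, a difference that was not tested.

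Of 20 thioredoxin relatives and methionine sulfoxide reductases 2 rose (10.0%) and 7 fell (35.0%), with a median of −0.28; with library totals alone 1 rose and 12 fell, and without P1 replicate 3 or P14 replicate 1 a single gene rose. Msrb1, a selenoprotein that repairs oxidised methionine, rose from 68.1 to 338 CPM, and Txnip, whose product binds and inhibits thioredoxin, fell from 764 to 407 CPM (−0.91 ± 0.19, adjusted p = 0.00143). Txndc5, a protein disulfide isomerase of the endoplasmic reticulum, fell from 107 to 50.2 CPM. Of 17 genes for selenocysteine synthesis and other selenoproteins 1 rose and 5 fell (29.4%; median −0.15), including Sephs2, which makes the selenium donor (28.2 to 11.7 CPM). Txnrd1, Txnrd2, Gpx1 and Gpx4 are selenoproteins themselves, and their calls differed: Txnrd1 fell, Txnrd2 and Gpx4 rose and Gpx1 did not pass. The rise in the selenoprotein list, that of Sepp1, was called in the full set and without P1 replicate 2, and not without any of the other 5 libraries.

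Of 18 genes for sources of superoxide and peroxide 8 rose (44.4%) and 2 fell (11.1%), with a median of 0.79. Xdh, xanthine dehydrogenase, rose from 5.07 to 47.6 CPM and Aox1, aldehyde oxidase, from 1.77 CPM by 2.76 on the log2 scale, while Maoa, monoamine oxidase A, fell from 10.1 to 4.97 CPM and Pdia4, a disulfide isomerase, from 43.1 to 18.8 CPM. The call of Maoa ended without P14 replicate 3 (−0.86, adjusted p = 0.0542). With library totals alone 6 of these source genes rose and 5 fell.

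Markers of other cell types moved over the same days. Erythroid markers such as the globin genes and Alas2 (7 of 9 rose and 1 fell) summed to between 474 and 992 CPM at P1 and between 2706 and 3604 CPM at P14, and Cat, Prdx2, Gpx1 and Glrx5 are known to be active in red cells or their precursors. Macrophage markers (10 of 15 rose, 0 fell) summed to between 118 and 126 CPM and then to between 353 and 412 CPM, while Hmox1, which macrophages express, fell. Granulocyte markers (5 of 5 fell) went from between 45.8 and 59.6 CPM to between 6.05 and 8.45 CPM. Smooth muscle and pericyte markers (5 of 8 rose and 2 fell) summed to between 1767 and 2671 CPM and between 1778 and 2199 CPM, fibroblast markers (2 of 10 rose and 1 fell) to between 1793 and 2353 CPM and between 1912 and 2661 CPM, and endothelial markers (5 of 10 rose, 0 fell) to between 756 and 904 CPM and between 1041 and 1139 CPM. Epicardial markers (0 of 4 tested rose and 2 fell) went from between 26.8 and 45.0 CPM to between 12.1 and 19.1 CPM. Leaving out 1 library moved each of these marker counts by at most 1 gene, while with library totals alone 2 endothelial markers rose and 4 fell. The part of these cell types in the changes of the defence genes was not tested.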

How the data were processed

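Ventricular poly(A) RNA was sequenced for 36 cycles on a Genome Analyzer IIx, per the labels' protocols. The authors deposited raw read counts per gene for 6 libraries, 3 per age, with ages and replicate numbers in the column names. The submitters' processing notes name bedtools, edgeR 3.2.4 and GRCm38 (mm10). Aligner, counting program and strand setting: not given in the sources used here. No row of the table sums to fewer than 60 reads over its 6 columns, so rarer transcripts are not analysed here.

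Counts were filtered with filterByExpr (minimum count 10; 194 genes removed), scaled by TMM and tested in edgeR 4.0.16 (R 4.3.3, limma 3.58.1) by the robust quasi-likelihood F-test (age alone in the model, two-sided), with Benjamini-Hochberg adjustment over 14301 genes. The fitted common biological coefficient of variation equalled 23.0%, and a standard error is a gene's coefficient over the root of its F statistic. Adjusted p-values are from edgeR unless an exact permutation test is named. On simulated counts 98 of 99 genes changed 4-fold, 39 of 100 changed 2-fold and 9 of 14159 unchanged genes were called. The simulation gave all genes the same dispersion, had no GC trend and changed 200 genes, equally up and down. In the data 3115 genes rose and 3149 fell and P1 replicate 2 had a GC trend, so these rates need not hold there. Replicates are separate pools of hearts, and no library was a duplicate of another.

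Both ages number their replicates 1 to 3, and the labels do not say that libraries of the same number belong together. Deviations of same-numbered libraries correlated at 0.295, 0.112 and 0.102, and those of other pairs at −0.214 to 0.09. These weak correlations do not settle whether the libraries are paired. The main calls and exact ratio tests therefore used no pairing, and the fit with the replicate number as a block was an alternative. The other alternatives were DESeq2 size factors, library totals alone, no filter, a filter of over 5 CPM in 3 libraries, DESeq2 1.42.0, a correction for GC content and length (spline, 4 df) with and without the block, an adjusted p under 0.01, and leaving out each library.

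Ratios of 2 genes used counts with 0.5 added. Positions, exon overlaps and 36-base uniqueness came from GENCODE M21 (GRCm38), in which 14320 genes (98.8%) and all 52 members were found. Promoters are RefSeq windows. Members shown library by library were those called with a log2 fold change of at least 1 in size and a named set of central genes; pathway genes were the largest called changes per list at 5 CPM or more. The members and lists were chosen with earlier results of these data known.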

Additional observations from a re-analysis of the deposited data

How the results depend on the processing

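With library totals alone, 1620 of all genes rose and 5592 fell, and 10 defence genes rose and 15 fell. The falls added by that scaling were those of Txnrd3, Gpx7, Gpx8, Txn1, Gclc, Nnt and Gstm2. In the main fit with TMM scaling, 2110 of all genes rose and 2025 fell at an adjusted p under 0.01. No called defence gene reversed its direction under any of the 15 alternatives in which it was tested. Among genes that did not pass, log2 fold changes turned negative with library totals alone for Nqo1 (−0.08), Gstm7 (−0.31), Prdx2 (−0.14), Txn2 (−0.20), Nfe2l2 (−0.29), Glrx2 (−0.43), Gpx3 (−0.23), Gstz1 (−0.25), Prdx3 (−0.38), Gsto2 (−0.14), Prdx6 (−0.39), Glrx3 (−0.04) and Gsta4 (−0.33). After the GC and length correction, without and with the replicate block, they turned for Gstm7 (−0.03 and −0.04), Gpx3 (−0.21 and −0.21) and Prdx1 (0.10 and 0.06), and without it for Gss (0.01). Leaving out 1 library gave ranges across 0 for Gstm5 (−0.14 to 0.05), Txn2 (−0.06 to 0.52), Glrx2 (−0.03 to 0.14), Prdx3 (−0.15 to 0.18), Prdx6 (−0.11 to 0.14), Prdx1 (−0.46 to 0.02) and Gsta4 (−0.06 to 0.27), with 16 to 19 defence genes rising and 7 to 10 falling. With the replicate block alone, 19 defence genes rose and 9 fell: the block added Gpx1 and Gclc and changed no other call among them. The cause of these changes was not tested. Genes below about 1 CPM, such as Gsta3 at P1, rest on few reads in every library.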
